A study of Mus musculus with 4 samples.

Results

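The 7 genes described here code for 3 receptors of the epidermal growth factor (EGF) receptor family, Egfr, Erbb2 and Erbb3, and for 4 EGF-like ligands, Hbegf, Areg, Tgfa and Btc. They were chosen by name from the 32285 genes listed in the count tables, as the receptors and the ligands known to be inducible. Each of the 7 genes was detected in every section. Areg passed the low count filter of the whole-section comparison only through the ischemic sections and was filtered out of the comparison by kidney zone, so its counts are given without a test.

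EGF receptors are tyrosine kinases of the cell membrane that pair when a ligand binds and then signal through adaptor proteins, Ras and the kinase ERK. ERBB2 binds no ligand of its own and acts as a partner, while ERBB3 binds neuregulins and has little kinase activity. The ligands are made as membrane-bound precursors that ADAM proteases cut free. In the kidney the tubule epithelium carries these receptors, EGF itself is made in the thick ascending limb and the distal convoluted tubule, and signalling through EGFR is known for its part in tubule repair after acute injury.

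The sections came from left kidneys of male WT C57BL/6J mice aged 7 to 8 weeks, and were 10 µm thick. Normal kidneys (n = 2 sections) served as the comparison, and the sources used here do not say whether those mice had surgery. Ischemic kidneys (n = 2 sections) were taken 24 h after both renal pedicles had been clamped for 30 min. The study describes 2 mice per condition with 2 technical replicates each, those sources leave unstated which mouse gave which section, and p-values therefore measure the spread between sections, which may be technical.

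Spatial expression was measured with Visium, an array whose spots each capture RNA from a small region that can hold several cells, and every captured transcript is counted by its own barcode, a unique molecular identifier (UMI). The sections held 25957128 to 44528078 UMIs over 2401 to 2682 tissue spots, with the deepest library in normal section 1. The labels placed all 4 sections on 1 slide. The labels for injury were checked with 2 tubular injury genes: Havcr1 (kidney injury molecule 1) had 43 and 59 counts in the normal sections against 43731 and 36668 in the ischemic sections, and Lcn2 (lipocalin 2) had 219 and 220 against 94901 and 94111. Tubule markers were present in every section, and the summed level of 5 proximal tubule markers was 3135 and 3181 counts per 1000000 counts (CPM) in the normal sections against 652 and 620 CPM in the ischemic sections. In sums over spots, fewer cells of a type and less RNA per cell cannot be told apart.

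Each gene is annotated as protein coding in GENCODE's annotation of the mouse genome (GRCm38). Egfr spans chr11:16752203-16918158 on the plus strand and Erbb2 chr11:98412470-98437716 on the plus strand. Erbb3 spans chr10:128567523-128589652 on the minus strand. Areg (chr5:91139599-91148432, plus strand) and Btc (chr5:91357261-91402994, minus strand) are close neighbours. Tgfa spans chr6:86195223-86275719 on the plus strand.

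The 250 bases before the start site are shown for the ligand with the largest fold change and for the receptor that rose, because the response element for cAMP (CRE, letters TGACGTCA) and the TATA box (letters TATAAA) are textbook features of inducible promoters. The sequences are from RefSeq (GRCm38.p6, plus strand), run 5′ to 3′, and carry capitals where a searched motif was found. The motifs were searched on both strands.
Areg, chr5:91139349-91139598: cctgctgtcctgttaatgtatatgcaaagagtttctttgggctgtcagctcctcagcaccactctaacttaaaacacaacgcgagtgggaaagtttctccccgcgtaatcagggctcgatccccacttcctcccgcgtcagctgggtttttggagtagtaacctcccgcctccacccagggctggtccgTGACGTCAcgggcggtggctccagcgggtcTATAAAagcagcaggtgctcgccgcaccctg
Egfr, chr11:16751953-16752202: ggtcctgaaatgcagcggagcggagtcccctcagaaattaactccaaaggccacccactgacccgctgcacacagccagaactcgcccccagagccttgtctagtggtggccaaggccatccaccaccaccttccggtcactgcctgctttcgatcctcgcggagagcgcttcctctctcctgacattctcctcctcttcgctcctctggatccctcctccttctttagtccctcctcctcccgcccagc
The Areg window held the CRE letters 61 bases and the TATA letters 31 bases before the start. Of 32851 windows of the same length, 1.55% held TGACGTCA, 12.4% held TATAAA and 6.75% held the AP-1 letters TGANTCA. None of the 3 motifs was found in the windows of Egfr, Erbb2, Tgfa and Btc, which says only that these letters are not in those windows. Windows of 5 of the 7 genes were searched, and those of Erbb3 and Hbegf are not reported here.

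Whole sections were compared first, to ask which receptors and ligands differed between ischemic and normal kidneys. Levels are CPM after edgeR's TMM scaling, called normalised CPM. Hbegf, Tgfa, Btc and Egfr rose, Erbb2 was slightly lower, and Areg, given without a test, had more counts in the ischemic sections. In this comparison 60.6% of the 15305 genes tested passed an adjusted p of 0.05, 31% higher and 29.7% lower, so that a passed test alone sets none of these genes apart. Of all calls 51.1% were higher, and with total counts 67.0% were.

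**Figure D1:**
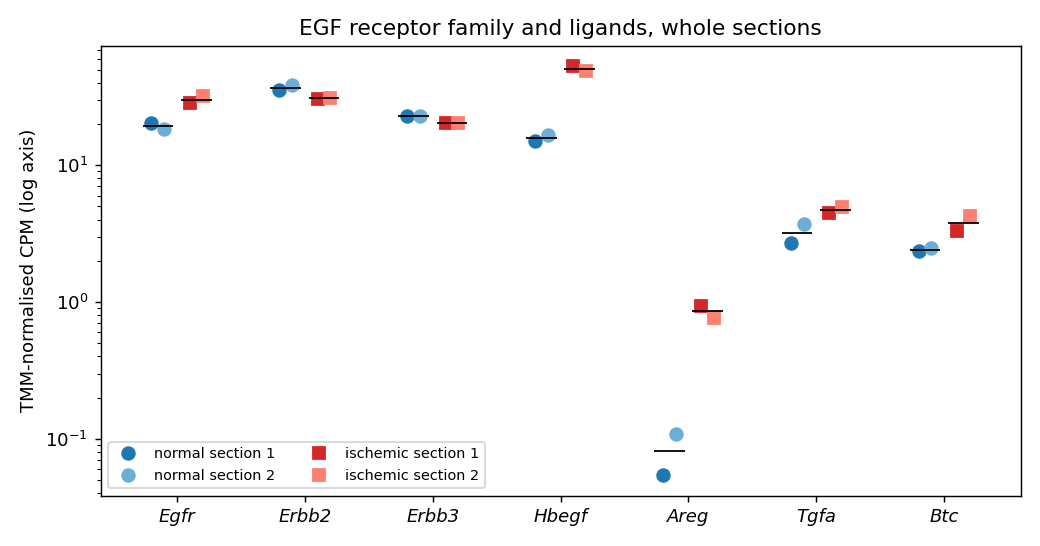
Normalised CPM of each gene (log axis) in the 4 whole sections. Circles are normal sections, squares are ischemic sections and bars are group means (n = 2). Hbegf lies at 14.96 and 16.5 in normal sections and at 52.8 and 48.8 in ischemic sections, while the receptors differ far less.

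Hbegf codes for heparin-binding EGF-like growth factor. It had 552 and 456 counts in normal sections 1 and 2 and 1792 and 1399 counts in ischemic sections 1 and 2. These were 14.96 and 16.5 normalised CPM against 52.8 and 48.8 normalised CPM, with a wide gap between the groups. The rise was 3.23-fold (log2 fold change 1.69, SE 0.10, edgeR adjusted p = 1.52e-06).

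Hbegf was also found in more spots. A UMI was present in 18.0% and 14.7% of spots in normal sections against in 45.4% and 36.3% in ischemic sections. After each spot had been thinned to 2000 UMIs, leaving out 48 to 150 shallower spots per section, the shares were 2.34% and 3.44% against 11.5% and 10.6%. The ratio of the mean shares was 2.50 with all UMIs and 3.83 after thinning. A single spot held at most 5 Hbegf counts in normal sections and at most 8 in ischemic sections.

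Areg codes for amphiregulin, an EGFR ligand known as a target of several growth signals. It was nearly undetected in the normal sections, with 2 and 3 counts, and had 32 and 22 counts in the ischemic sections. Summed by condition, 5 counts stood against 54, a ratio of CPM of 13.7 that rests on the 5 normal counts and was not tested. Both ischemic sections lay above both normal sections. Even in the ischemic sections only 28 of 2401 and 22 of 2613 spots held an Areg UMI.

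Tgfa codes for transforming growth factor alpha. It had 99 and 103 counts in normal sections and 152 and 141 in ischemic sections, or 2.68 and 3.73 against 4.48 and 4.92 normalised CPM. The groups did not overlap, but normal section 2 lay closer to ischemic section 1 than to normal section 1. The rise was 1.48-fold (log2 fold change 0.56, SE 0.21, edgeR adjusted p = 0.0426). Without normal section 1 the log2 fold change was 0.34 (edgeR adjusted p = 0.125), and the call was also lost without either ischemic section (adjusted p = 0.0982 and 0.207). With the pelvis spots left out the difference was larger, at 0.96.

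Btc codes for betacellulin, which binds both EGFR and ERBB4. It had 87 and 68 counts in normal sections and 112 and 122 in ischemic sections, or 2.36 and 2.46 against 3.30 and 4.26 normalised CPM. The 2 normal sections were nearly equal and ischemic section 2 was the highest. The rise was 1.56-fold (log2 fold change 0.64, SE 0.21, edgeR adjusted p = 0.0266). Without ischemic section 2 it was 0.46 on the log2 scale (edgeR adjusted p = 0.274), and with the pelvis spots left out it was 0.54 (adjusted p = 0.0505).

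Egfr, the receptor for all 4 of these ligands, had 747 and 508 counts in normal sections and 962 and 912 in ischemic sections. Its levels were 20.2 and 18.4 normalised CPM against 28.3 and 31.8 normalised CPM, and both ischemic sections lay above both normal sections. The rise was 1.55-fold (log2 fold change 0.63, SE 0.10, edgeR adjusted p = 0.000671). A UMI of Egfr was present in 24.3% and 16.4% of spots in normal sections against in 30.9% and 28.1% in ischemic sections, and after thinning in 3.31% and 3.99% against 5.72% and 6.74%.

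Erbb2 had 35.3 and 38.4 normalised CPM in normal sections against 30.5 and 31.2 in ischemic sections. The groups did not overlap, and the log2 fold change was -0.25 (SE 0.093, edgeR adjusted p = 0.0400). When only total counts were used for scaling, the difference was 0.0083 on the log2 scale and the direction turned (edgeR adjusted p = 0.966). That scaling moved the median log2 fold change of all genes from 0.04 to 0.31, and relative to that median Erbb2 still lay lower. The Erbb2 call was also lost without ischemic section 1 (log2 fold change -0.22, adjusted p = 0.328) and without ischemic section 2 (-0.26, adjusted p = 0.248).

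Erbb3 had 23.0 and 22.8 normalised CPM in normal sections against 20.3 and 20.2 in ischemic sections. Sections of a condition were almost equal, but the difference did not pass the test (log2 fold change -0.17, 95% interval -0.38 to 0.03, edgeR adjusted p = 0.131). With total counts the direction turned, at 0.098 (edgeR adjusted p = 0.611). Without normal section 2 the difference passed (log2 fold change -0.21, edgeR adjusted p = 0.0363).

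Markers of several other cell types also differed between conditions. The summed level of 6 neutrophil markers was 1.62 and 2.64 CPM in normal sections and 182 CPM in both ischemic sections, while that of 6 macrophage markers overlapped, at 194 and 277 CPM against 209 and 202 CPM, with Csf1r among them at 42.6 and 41.8 CPM against 13.7 and 12.8 CPM. The 6 urothelial markers summed to 202 and 530 CPM in normal sections against to 35.2 and 64.5 CPM in ischemic sections. Fibroblast markers (5 genes) summed to 144 and 233 CPM against 331 and 343 CPM, and endothelial markers (5 genes) to 250 and 321 CPM against 390 and 434 CPM. T cell markers (5 genes) summed to 13.8 and 28.1 CPM against 2.32 and 2.50 CPM, red cell markers (4 genes) to 8874 and 9027 CPM against 763 and 1614 CPM, and adipocyte markers (4 genes) to 552 and 394 CPM against 226 and 219 CPM. Nearly all of the ischemic adipocyte sum was Fabp4 (226 and 218 CPM), while Cfd was at 219 and 104 CPM against 0.290 and 0.308 CPM. Among the fibroblast markers Dcn went the other way, from 58.8 and 96.4 CPM to 16.9 and 17.1 CPM. No gene of these lists was at 0 in a section. Their part in the differences of the receptors and ligands was not tested.

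Each spot was then assigned to cortex, outer stripe, inner stripe, inner medulla or pelvis from marker genes of that spot and its neighbours, to ask where along the kidney the genes lay. In the ischemic sections each zone's own markers were lower than in the normal sections. The cortex markers summed to 4815 and 4994 CPM in normal cortex and to 1187 and 1207 CPM in ischemic cortex, and the outer stripe markers to 3127 and 3023 CPM in normal outer stripe and to 463 and 489 CPM in ischemic outer stripe. When marker scores were standardised over all sections together, only 13.0% and 22.6% of the ischemic outer stripe spots kept their zone. In the normal sections 100% and 98.5% did. Of the inner stripe spots, 22.8% and 23.2% kept their zone in ischemic sections and 41.9% and 98.3% in normal sections 1 and 2. With those zones the log2 fold change of Hbegf in outer stripe and of Egfr in outer stripe still passed, as they did under each of the 14 alternatives run for zones.

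The ischemic spots scored as inner medulla did not hold the highest sum of its markers. The 5 inner medulla markers summed to 9419 and 10431 CPM in that zone of the normal sections and to 4110 and 4248 CPM in that of the ischemic sections, where outer stripe held more, at 6283 and 6207 CPM. Over whole sections most of the ischemic sum was Cryab, at 590 and 641 CPM in normal sections against 2563 and 2536 CPM in ischemic sections, and Slc14a2 was at 10.6 and 38.4 CPM against 184 and 186 CPM. The 2 collecting duct markers stayed higher in ischemic inner medulla than in ischemic outer stripe (186 and 133 CPM). In the inner medulla zone those markers summed to 2748 and 3092 CPM (normal) against 553 and 1124 CPM (ischemic), 2 thick limb markers to 2467 and 4684 CPM against 5288 and 5052 CPM, and 6 urothelial markers to 916 and 2355 CPM against 6.47 and 63.6 CPM. Red cell markers in that zone summed to 47938 and 17014 CPM (normal) against 545 and 1047 CPM (ischemic). Adipocyte markers there summed to 5894 and 1132 CPM against 334 and 272 CPM. The name inner medulla therefore stands only for the rule that scored the spots, and for each gene below its values in the 2 conditions compare regions of unlike make-up.

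In the normal kidney Hbegf was lowest in the outer stripe. Its normalised CPM was 21.1 and 24.3 in cortex, 10.8 and 11.9 in outer stripe, 13.6 and 14.5 in inner stripe, 21.7 and 16.6 in inner medulla, and 19.5 and 21.8 in pelvis. Outer stripe lay below cortex by a log2 difference of -1.002 (SE 0.14, edgeR adjusted p = 5.36e-05), as did inner stripe (-0.69, SE 0.16, adjusted p = 0.00449). The inner stripe call was lost with total counts (-0.48, adjusted p = 0.132). Cortex held 59.2% and 55.9% of all Hbegf counts of the normal sections. Inner medulla and cortex did not differ beyond the test (log2 difference -0.28, 95% interval -0.70 to 0.15, edgeR adjusted p = 0.309), but with zones from the spot alone they did (-0.78, adjusted p = 0.00443). In the comparison of normal outer stripe with cortex 15.1% of 14174 genes passed, 7.51% higher and 7.54% lower. For inner stripe it was 20.9%, 11% higher and 9.86% lower, and for inner medulla 36.4%, 18.5% higher and 18% lower.

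In the ischemic kidney cortex was the lowest zone for Hbegf. It had 33.2 and 26.1 normalised CPM in ischemic cortex, 68.7 and 63.7 in outer stripe, 73.3 and 68.2 in inner stripe, 83.4 and 73.6 in inner medulla, and 54.8 and 52.9 in pelvis. Cortex now held 21.7% and 16.2% of the Hbegf counts and outer stripe 37.2% and 37.5%. Outer stripe, inner stripe and inner medulla kept the order outer stripe lowest and inner medulla highest in all 4 sections. In plain CPM, without TMM scaling, ischemic outer stripe was at 65.2 and 60.5, inner stripe at 89.1 and 81.5 and inner medulla at 100.9 and 89.2.

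The rise of Hbegf was 5.85-fold in outer stripe (log2 fold change 2.55, SE 0.14, edgeR adjusted p = 3.27e-11), 5.05-fold in inner stripe (2.34, SE 0.16, adjusted p = 1.34e-09) and 4.2-fold in inner medulla (2.07, SE 0.19, adjusted p = 1.41e-07), the last between zones of the unlike make-up given above. In cortex it was 1.32-fold (0.40, SE 0.13, edgeR adjusted p = 0.020). Of the 14174 genes tested between conditions, 40.1% passed in cortex (20.2% higher, 19.9% lower), 56.9% in outer stripe (27.4% higher, 29.5% lower), 48.2% in inner stripe (22.2% higher, 25.9% lower) and 35.1% in inner medulla (13.9% higher, 21.2% lower). Over the 14 alternatives the Hbegf value ranged from 2.36 to 2.95 in outer stripe, from 2.04 to 2.70 in inner stripe and from 1.85 to 2.43 in inner medulla, and each passed.

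The small cortical difference passed without normal section 2 and missed the threshold without each of the other sections. The log2 fold change of Hbegf in cortex was 0.22 without normal section 1 (edgeR adjusted p = 0.223), 0.21 without ischemic section 1 (adjusted p = 0.473) and 0.56 without ischemic section 2 (adjusted p = 0.0527). It also missed the threshold with spots near a zone boundary left out (0.32, edgeR adjusted p = 0.0708) and in DESeq2 (0.32, adjusted p = 0.101). The same held in edgeR with RLE scaling in place of TMM (0.32, adjusted p = 0.0580) and with no low count filter (0.37, adjusted p = 0.0598).

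The difference between zones was itself tested. The rise of Hbegf exceeded that in cortex by 2.15 on the log2 scale in outer stripe (SE 0.19, edgeR adjusted p = 6.80e-06), by 1.94 in inner stripe (SE 0.21, adjusted p = 9.34e-06) and by 1.68 in inner medulla (SE 0.23, adjusted p = 0.000166). These interaction tests were passed by 11.7% of genes for outer stripe (4.42% higher, 7.33% lower), 11.1% for inner stripe (2.77% higher, 8.35% lower) and 7.25% for inner medulla (1.64% higher, 5.6% lower). Over the 14 alternatives run for each, the outer stripe value ranged from 2.05 to 2.44 with adjusted p up to 0.0176, the inner stripe value from 1.65 to 2.097 with adjusted p up to 0.0138, and the inner medulla value from 1.35 to 2.09 with adjusted p up to 0.0322.

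**Figure D2:**
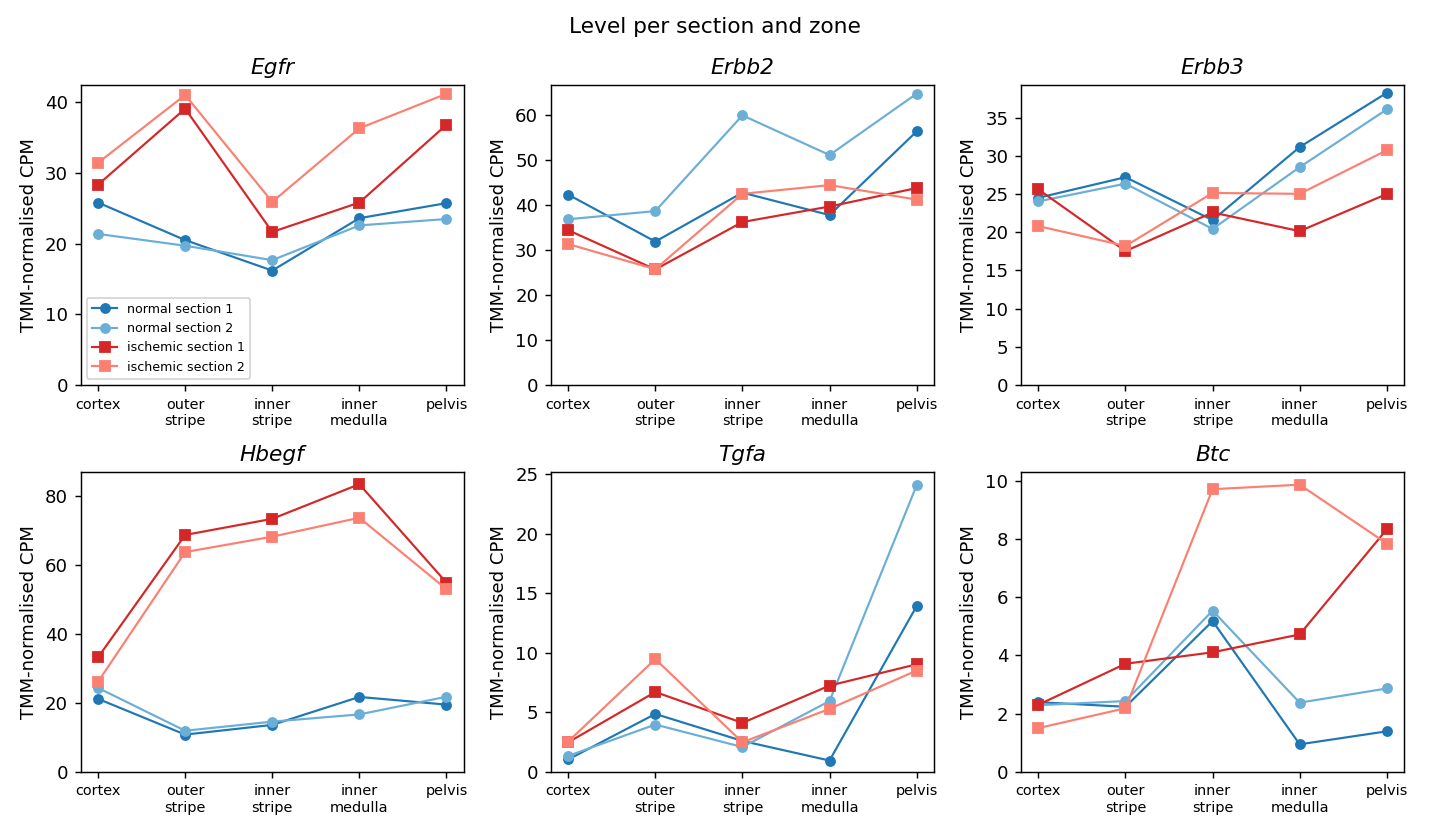
Normalised CPM (linear axes from 0) of 6 genes in each zone, with a point per section (blue circles normal, red squares ischemic) and lines that join the zones of a section. Hbegf in ischemic sections lies at 63.7 or more in the 3 medullary zones and at 33.2 or less in cortex, and Egfr lies at 39.1 and 41.0 in ischemic outer stripe and at 36.8 and 41.2 in ischemic pelvis.

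**Figure D3:**
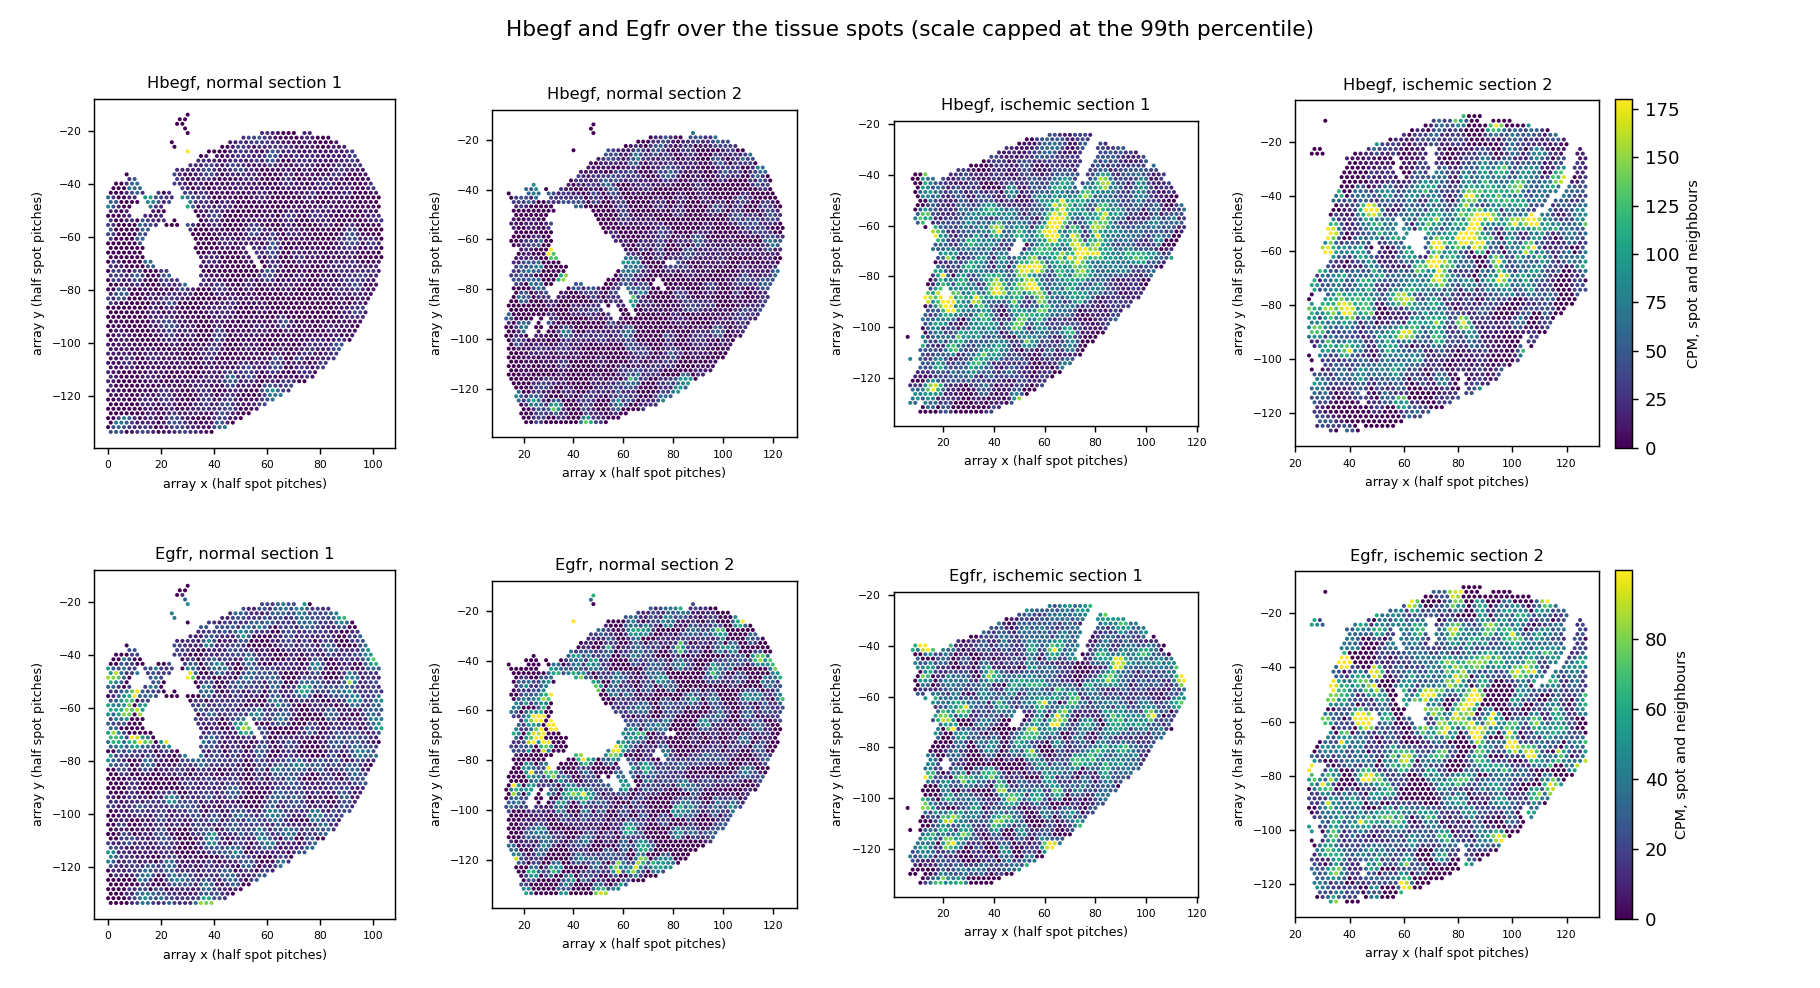
CPM of Hbegf (top) and Egfr (bottom), pooled over each spot and its neighbours, drawn at the spot positions of the 4 sections (axes in array steps, colour capped at the 99th percentile). High Hbegf fills the inner part of both ischemic sections and is scarce along their outer rim, while both normal sections stay low throughout.

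Egfr was spread more evenly in the normal kidney. It had 25.8 and 21.4 normalised CPM in cortex, 20.5 and 19.7 in outer stripe, 16.2 and 17.7 in inner stripe, 23.6 and 22.6 in inner medulla, and 25.7 and 23.5 in pelvis. Inner stripe was below cortex by a log2 difference of -0.50 (SE 0.16, edgeR adjusted p = 0.0370), a call lost without normal section 1 (-0.37, adjusted p = 0.290), without ischemic section 1 (-0.49, adjusted p = 0.0788) and without ischemic section 2 (-0.50, adjusted p = 0.0795), and with total counts (-0.25, adjusted p = 0.410). Neither outer stripe (-0.24, 95% interval -0.53 to 0.05) nor inner medulla (-0.04, 95% interval -0.46 to 0.37) passed against cortex.

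In the ischemic kidney Egfr was highest in outer stripe and pelvis after TMM scaling. Its levels were 28.3 and 31.4 normalised CPM in cortex, 39.1 and 41.0 in outer stripe, 21.6 and 25.9 in inner stripe, 25.8 and 36.3 in inner medulla, and 36.8 and 41.2 in pelvis. In plain CPM outer stripe was at 37.1 and 39.0, inner medulla at 31.2 and 43.9 and pelvis at 42.8 and 49.9, so that outer stripe was not the highest zone on that scale. The rise was 1.99-fold in outer stripe (log2 fold change 0.99, SE 0.14, edgeR adjusted p = 4.98e-06) and 1.41-fold in inner stripe (0.50, SE 0.17, adjusted p = 0.0242). The inner stripe call was lost without normal section 1 (0.45, adjusted p = 0.127) and without ischemic section 2 (0.37, adjusted p = 0.213), in DESeq2 (0.47, adjusted p = 0.0607) and with scores standardised over all sections (0.53, adjusted p = 0.0759).

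In cortex the Egfr difference lay just outside the threshold (log2 fold change 0.33, 95% interval 0.05 to 0.61, edgeR adjusted p = 0.0544), and 6 of 14 alternatives placed it inside. In inner medulla Egfr did not pass (0.43, 95% interval -0.02 to 0.87, adjusted p = 0.128), while with zones from the spot alone it did (0.62, adjusted p = 0.0151), and its value ranged from 0.012 to 0.68 over the alternatives. The rise in outer stripe exceeded that in cortex by 0.66 on the log2 scale (SE 0.19, edgeR adjusted p = 0.0295). This interaction was lost without normal section 1 (0.51), without ischemic section 1 (0.62) and without ischemic section 2 (0.70). With zones from the spot alone it also missed the threshold (0.63, edgeR adjusted p = 0.0550). With either ischemic section left out, only 14 and 47 genes in all passed this interaction test.

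Erbb2 and Erbb3 fell in outer stripe. Erbb2 had 31.9 and 38.6 normalised CPM in normal outer stripe and 25.7 in both ischemic sections (log2 fold change -0.45, SE 0.16, edgeR adjusted p = 0.0187). Erbb3 had 27.2 and 26.3 normalised CPM in normal outer stripe and 17.5 and 18.2 in ischemic outer stripe (log2 fold change -0.59, SE 0.13, edgeR adjusted p = 0.000710). With total counts neither passed (Erbb2 -0.06, edgeR adjusted p = 0.838, and Erbb3 -0.18, adjusted p = 0.379). The Erbb2 call was also lost without ischemic section 1 (-0.44) and without ischemic section 2 (-0.45). With no low count filter Erbb2 missed the threshold as well (-0.35, edgeR adjusted p = 0.0630).

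In the other zones neither passed between conditions with all sections and the main settings. For Erbb2 the log2 fold change was -0.27 in cortex, -0.36 in inner stripe and -0.11 in inner medulla, and for Erbb3 it was -0.06, 0.18 and -0.40. Erbb2 passed in cortex without normal section 2 (-0.36, edgeR adjusted p = 0.00735), and in inner stripe without normal section 1 (-0.58, adjusted p = 0.00213) and with zone scores standardised over all sections (-0.42, adjusted p = 0.0437). With total counts the inner stripe value of Erbb3 was 0.54 and passed (edgeR adjusted p = 0.0263). With zone scores standardised over all sections both fell in inner medulla, Erbb2 by 0.63 (edgeR adjusted p = 0.00766) and Erbb3 by 0.69 (adjusted p = 0.00838). The highest level of both in the normal sections was in pelvis, at 56.3 and 64.7 normalised CPM for Erbb2 and at 38.2 and 36.1 for Erbb3. In ischemic pelvis Erbb2 was at 43.7 and 41.2 and Erbb3 at 24.99 and 30.7 normalised CPM, and pelvis was not tested. The urothelial markers that chose its spots were low in the ischemic sections, and each tested zone's own markers were lower there too.

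Areg counts lay mainly in the ischemic outer stripe. The outer stripe held 0 and 1 counts in normal sections and 23 and 13 counts in ischemic sections, which was 71.9% and 59.1% of the Areg counts of each ischemic section. Ischemic cortex held 2 and 4 counts, inner stripe 5 and 2, inner medulla 2 and 1, and pelvis 0 and 2. Of the 5 counts of the normal sections, 3 were in pelvis, 1 in cortex and 1 in outer stripe. An Areg UMI was present in 3.22% and 1.91% of ischemic outer stripe spots, with upper 95% limits of 0.458% and 0.678% for the normal outer stripe.

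Tgfa was unevenly spread in both conditions. In the normal sections it had 1.03 and 1.33 normalised CPM in cortex, 4.86 and 3.96 in outer stripe, 2.59 and 2.08 in inner stripe, 0.943 and 5.94 in inner medulla, and 13.9 and 24.0 in pelvis. Outer stripe exceeded cortex 3.77-fold (log2 difference 1.92, SE 0.37, edgeR adjusted p = 0.00105). Inner medulla also passed against cortex (1.75, SE 0.62, adjusted p = 0.0334), but rested on 1 and 10 counts, and without normal section 2 the difference was -0.13 (adjusted p = 0.967). The call was also lost without either ischemic section (1.73 and 1.72). With zone scores standardised over all sections the difference was 0.30 (edgeR adjusted p = 0.869). With spots near a zone boundary left out it was 1.39 (edgeR adjusted p = 0.133).

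Between conditions Tgfa rose in cortex, from 1.03 and 1.33 to 2.47 and 2.54 normalised CPM (log2 fold change 1.09, SE 0.40, edgeR adjusted p = 0.0349), and in outer stripe, from 4.86 and 3.96 to 6.70 and 9.46 (0.85, SE 0.30, adjusted p = 0.0193). Both ischemic sections lay above both normal sections in each of these zones. The cortex call was lost without normal section 1 (0.81, adjusted p = 0.143), without ischemic section 1 (1.12, adjusted p = 0.188) and without ischemic section 2 (1.08, adjusted p = 0.186). The outer stripe call was lost without ischemic section 1 (1.10) and without ischemic section 2 (0.60). It was also lost with zones from the spot alone (0.67, edgeR adjusted p = 0.0610). In pelvis Tgfa was lower in the ischemic sections, at 9.02 and 8.50 normalised CPM, beside summed urothelial markers of 5215 and 6336 CPM in normal pelvis and 766 and 1116 CPM in ischemic pelvis. The part of the urothelium in this difference was not tested.

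Btc was highest in inner stripe in both normal sections, at 5.18 and 5.54 normalised CPM against 2.39 and 2.29 in cortex. The difference lay just outside the threshold (log2 difference 1.18, 95% interval 0.29 to 2.06, edgeR adjusted p = 0.0550), and 6 of 14 alternatives placed it inside. Between conditions Btc passed only in inner medulla, from 0.943 and 2.38 to 4.72 and 9.87 normalised CPM (log2 fold change 1.98, SE 0.71, edgeR adjusted p = 0.0359), on 1 and 4 counts against 15 and 28. The call was lost without normal section 1 (1.65, adjusted p = 0.135), normal section 2 (2.89, adjusted p = 0.0870) or ischemic section 2 (1.39, adjusted p = 0.158). The value was 0.39 with zones from the spot alone (edgeR adjusted p = 0.448) and 1.13 with zone scores standardised over all sections (adjusted p = 0.245). In inner stripe the 2 ischemic sections lay far apart, at 4.10 and 9.71.

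Position was also described without marker genes, by the distance of each spot from the nearest array position outside tissue, divided by the largest such distance in its section. Hbegf was lower at depth in the normal sections, with 16.4 and 20.3 CPM in the outermost of 5 bins and 8.72 and 7.97 CPM in the deepest, which rest on 10 and 8 counts. In ischemic section 1 it went from 43.6 CPM in the outermost bin to 92.2 CPM in the deepest. In ischemic section 2 it went from 43.7 CPM to 77.9 CPM in the fourth bin and was at 58.2 CPM in the deepest, which held 49 counts. Every bin of both ischemic sections lay above every bin of both normal sections.

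Egfr followed depth less closely. It ranged from 11.7 to 19.99 CPM over the bins of normal section 1 and from 13.3 to 20.3 CPM in normal section 2, against 27.9 to 32.8 CPM and 33.0 to 38.5 CPM in the ischemic sections. Spots along the pelvic space count as shallow on this scale, so that depth is not the distance from the capsule alone.

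**Figure D4:**
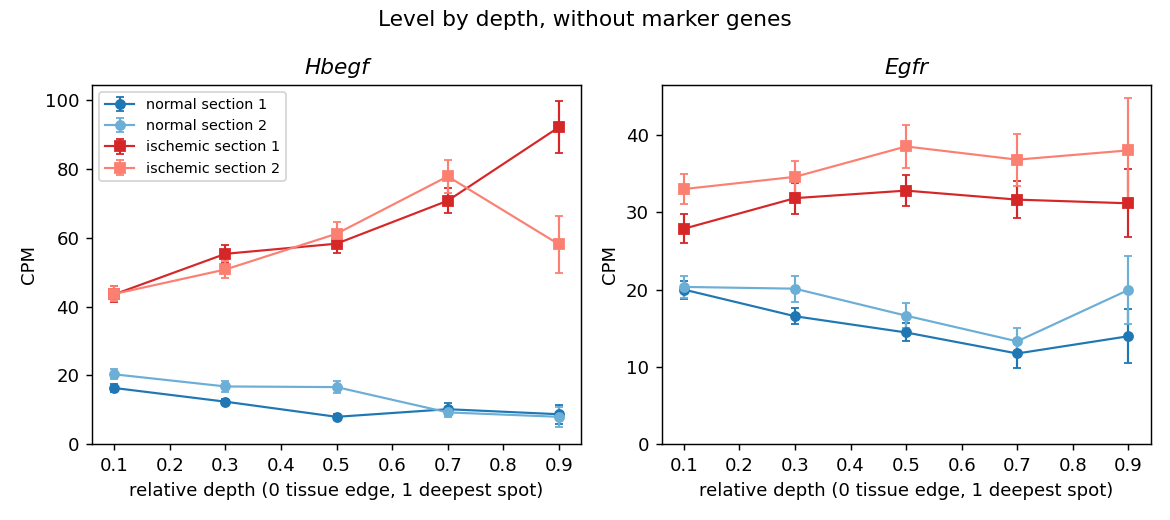
CPM of Hbegf (left) and Egfr (right) in 5 bins of relative depth, from the tissue edge at 0 to the deepest spot at 1, with a line per section and bars for the counting error of 1 SD. In the ischemic sections Hbegf is higher in the interior than at the edge, with a value of 92.2 CPM in the deepest bin of ischemic section 1.

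To set the genes beside Havcr1, the spots of ischemic cortex and outer stripe were split into 3 equal parts by Havcr1. In cortex Hbegf was higher from the lowest to the highest part, at 21.8, 29.6 and 39.7 CPM in ischemic section 1 and at 16.7, 21.9 and 31.95 CPM in ischemic section 2. In outer stripe Hbegf was at 72.2, 63.9 and 61.4 CPM in section 1 and at 64.2, 59.9 and 58.4 CPM in section 2. These values rest on 205, 219 and 242 counts and on 153, 181 and 191 counts, and no order is read from such small steps. Lcn2 in outer stripe was at 2898, 1570 and 1350 CPM in section 1 and at 2957, 1511 and 1009 CPM in section 2. Havcr1 and Lcn2 thus ordered the outer stripe spots differently. In cortex Lcn2 was at 604, 754 and 833 CPM in section 1 and at 457, 738 and 645 CPM in section 2. Egfr showed no such order in cortex, with 26.9, 28.8 and 23.8 CPM in section 1 and 31.6, 26.8 and 29.7 CPM in section 2. In outer stripe Egfr was higher with Havcr1 in section 1, at 29.2, 38.5 and 41.6 CPM, and nearly flat in section 2, at 39.4, 39.3 and 38.2 CPM. Median UMIs per spot also differed between the parts, from 10711 to 13896 in cortex of section 1 and from 6874 to 10746 in cortex of section 2, and in outer stripe from 13043 to 18613 and from 9505 to 14055, and these values are a description without a test.

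Receptor and ligand were next looked for in the same spots. In the ischemic sections 36.2% and 32.6% of spots with an Hbegf UMI also held an Egfr UMI, against 26.6% and 25.6% of the other spots. In the normal sections the shares were 29.2% and 21.6% against 23.2% and 15.5%. Other genes varied as well. Spots with Erbb3 held Egfr in 39.9% against 25.4% of the others in ischemic section 2, and spots with Btc in 24.6% against 28.3% there. Spots with Hbegf were deeper, with medians of 13462 and 10327 UMIs against 10582 and 7830 in the ischemic sections, and the part of depth in this difference was not tested.

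Over the 20 sums of section and zone, Pearson's r of log2 CPM between Hbegf and Egfr was 0.70, between Erbb2 and Erbb3 0.61 and between Hbegf and Btc 0.51. Sums of a section share that section and its depth, and the values are descriptions. The genes most like Hbegf over these sums were Rgs2 (r = 0.96), Gm26917 (0.96) and Sdc4 (0.96). Those most like Egfr were Wdr36 (0.90), Gm10376 (0.89) and Rab10 (0.88). For Erbb2 they were Chd6 (0.92), Plxnb1 (0.91) and Mecom (0.91), and for Erbb3 Scamp5 (0.88), Gpld1 (0.88) and Abhd12 (0.87). For Tgfa they were 4833407H14Rik (0.86), Reep4 (0.86) and Ptpre (0.85), and for Btc Clec2d (0.85), Prom1 (0.84) and Sorbs3 (0.83).

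Neutrophil markers were unevenly spread in the ischemic kidney. The 6 markers summed to 323 and 328 CPM in ischemic outer stripe, 126 and 132 CPM in inner stripe, 184 and 156 CPM in inner medulla and 68.7 and 82.0 CPM in cortex, and to at most 10.7 CPM in any zone of the normal sections. In ischemic pelvis the sum was 353 and 142 CPM. Outside pelvis it was highest in outer stripe, as were the Areg counts, whereas Hbegf, on the same scale of plain CPM, was higher in inner stripe (89.1 and 81.5) than in outer stripe (65.2 and 60.5). The 4 injured tubule markers, Havcr1 and Lcn2 among them, summed to 2079 and 2037 CPM in ischemic cortex and to 10418 and 11326 CPM in ischemic inner medulla. Fibroblast markers summed to 108 and 209 CPM in normal cortex against 192 and 217 CPM in ischemic cortex. In outer stripe the sums were 122 and 147 CPM against 280 and 275 CPM. In inner stripe they were 170 and 223 CPM against 616 and 569 CPM. In inner medulla the sum was not higher, at 596 and 626 CPM against 583 and 497 CPM. Endothelial markers summed to 200 and 234 CPM in normal outer stripe against 362 and 393 CPM in ischemic outer stripe, and to 240 and 304 CPM against 289 and 325 CPM in cortex. The part of these cells in the zone differences was not tested.

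The other genes of the pathway were taken from lists. Egf, the founding ligand of the family, fell from 615 and 665 normalised CPM to 7.51 and 7.64 (log2 fold change -6.40, SE 0.16, edgeR adjusted p = 3.85e-08). Of the 7 other ligands listed, Egf included, 3 passed the low count filter in whole sections. Nrg4, a neuregulin that binds ERBB4, fell as well (-2.30, SE 0.21, adjusted p = 2.14e-05), and Nrg1, a neuregulin that binds ERBB3 and ERBB4, rose (2.08, SE 0.12, adjusted p = 1.52e-06). The same 3 genes passed in the same directions in each of the 4 zones tested. Over all genes 60.6% passed in whole sections, 40.1% in cortex, 56.9% in outer stripe, 48.2% in inner stripe and 35.1% in inner medulla. Ereg, the gene of epiregulin, was filtered out, with 0 and 1 counts in normal sections and 12 and 6 in ischemic sections.

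The remaining receptor of the family, Erbb4, had 4.55 and 6.88 normalised CPM in normal sections against 8.19 and 8.41 in ischemic sections (log2 fold change 0.55, SE 0.19, edgeR adjusted p = 0.0348). The call was lost without normal section 1 (0.28), without ischemic section 1 (0.58) and without ischemic section 2 (0.54). It was also lost in DESeq2 (0.51, adjusted p = 0.0733). Within zones Erbb4 passed only in inner medulla.

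All 4 genes of ligand release rose in whole sections, where 31% of all genes did. Adam17, the main sheddase of EGFR ligands, rose by 0.42 on the log2 scale (SE 0.10, edgeR adjusted p = 0.00715) and Adam10 by 0.38 (SE 0.092, adjusted p = 0.00618). Rhbdf1 and Rhbdf2 code for iRhom proteins that carry ADAM17 to the cell surface, and rose by 0.74 (SE 0.096, edgeR adjusted p = 0.000173) and 1.89 (SE 0.14, adjusted p = 5.72e-06). The median of the list was 0.58 against 0.04 for all genes. In each of the 4 zones tested 3 of the 4 rose, against 20.2% of all genes in cortex, 27.4% in outer stripe, 22.2% in inner stripe and 13.9% in inner medulla. Alternative settings were run for Egf and Erbb4 among the pathway genes and not for the rest.

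Of 13 signal adaptors and kinases reported, 6 rose, 2 fell and 5 did not pass, with a median log2 fold change of 0.27. Over all genes 31% rose and 29.7% fell, so that the share of this list past the threshold is close to the 60.6% of all genes. Among the list Nras (1.47, SE 0.094, edgeR adjusted p = 2.38e-06), Shc1 (1.08, SE 0.12, adjusted p = 5.78e-05), which codes for an adaptor that binds activated receptors, and Map2k1, which codes for the ERK kinase MEK1 (0.67, SE 0.092, adjusted p = 0.000243) rose. Gab1, a docking protein, fell (-0.69, SE 0.095, edgeR adjusted p = 0.000238), as did the kinase Braf (-0.34, SE 0.11, adjusted p = 0.0194).

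Of 14 inhibitors of the receptor or of ERK, 8 rose and 6 did not pass, with a median of 0.47, against 31% of all genes higher and 60.6% past the threshold in either direction. Dusp5, a phosphatase of nuclear ERK, rose from 44 and 49 counts to 1093 and 981 (log2 fold change 4.51, SE 0.16, edgeR adjusted p = 1.30e-07). The Ras and ERK inhibitors Spry2 (2.64, SE 0.25, adjusted p = 2.40e-05) and Spred1 (1.01, SE 0.099, adjusted p = 2.89e-05) followed. In outer stripe 9 of the 14 rose (27.4% of all genes did), and in cortex 5 rose and 1 fell (20.2% and 19.9% of all genes).

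The list of 12 genes known to be induced by ERK held Fosl1, the gene of an AP-1 subunit. Fosl1 had 4 and 3 counts in normal sections and 1831 and 1534 in ischemic sections. It passed the low count filter only through the ischemic sections, so it is left out of the counts here. Of the other 11 genes 7 rose, 1 fell and 3 did not pass, with a median of 1.95, against 31% of all genes higher and 29.7% lower. Egr2, an early response transcription factor, rose by 3.96 (SE 0.26, adjusted p = 2.62e-06) and Plaur, the urokinase receptor, by 3.78 (SE 0.19, adjusted p = 6.79e-07). Fos, the classic immediate early gene, fell (-0.61, SE 0.20, edgeR adjusted p = 0.0265). In outer stripe 9 of the 11 rose and none fell (27.4% and 29.5% of all genes), and in cortex 6 rose and 2 fell (20.2% and 19.9%). These genes answer to other signals as well as to EGFR.

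**Figure D5:**
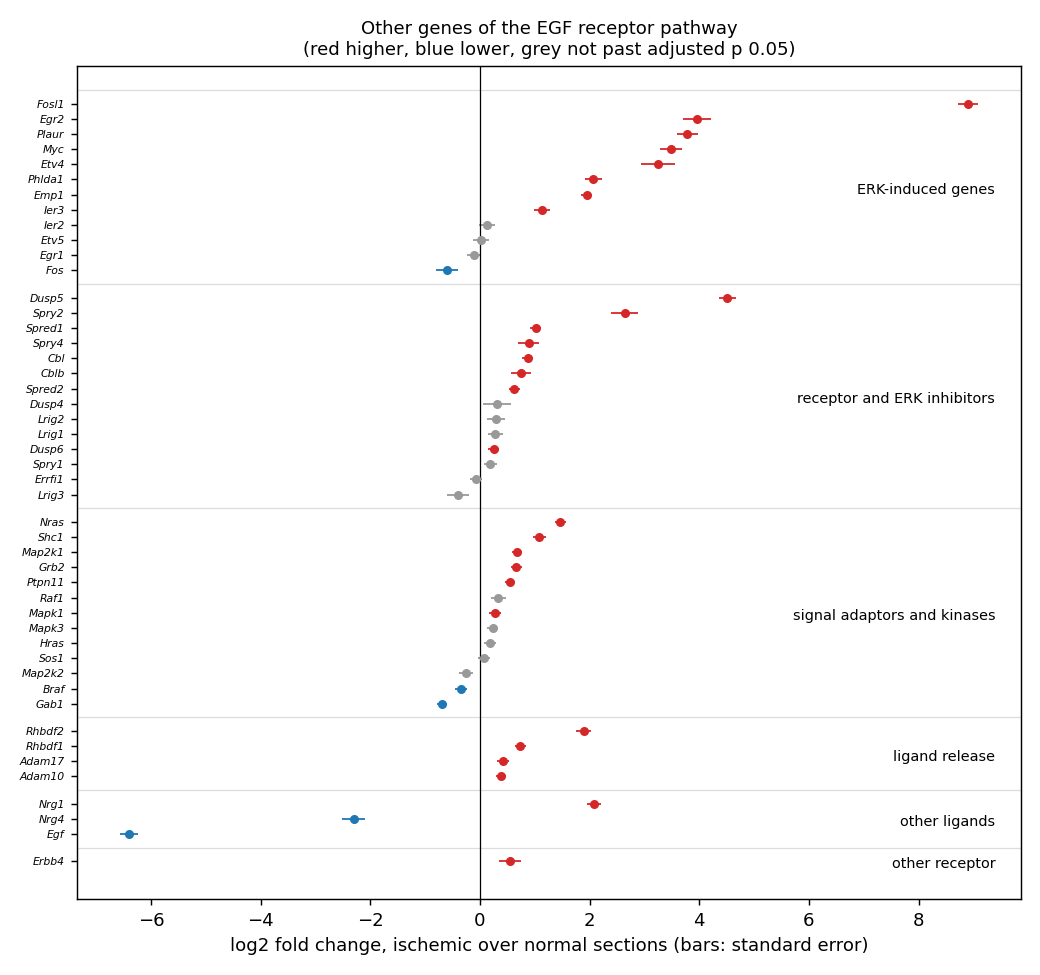
Log2 fold change of ischemic over normal whole sections for the tested genes of the pathway lists, with bars for the standard error. Red genes rose, blue genes fell and grey genes did not pass an adjusted p of 0.05, with Fosl1, which was nearly undetected in the normal sections, at one end and Egf at -6.40 at the other.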

How the data were processed

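The authors ran Space Ranger 1.3.0 (per the file headers, with the build mm10 in the submitters' processing notes) and the deposited matrices hold their raw UMI counts for the genes and spots under tissue. Gene positions came from GENCODE's annotation of GRCm38, which matched 32158 of 32285 identifiers (99.6%).

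Here counts were summed per section, and also for each zone of a section (each held 20 spots or more), and tested with edgeR 4.0.16 in R 4.3.3 (quasi-likelihood test after TMM scaling and filterByExpr, threshold 0.05 after Benjamini-Hochberg adjustment over every gene tested). The zone model held a group for each condition and zone over 20 sums, which share sections, so that its spread may be understated. No p-value was made from spots. A spot received the zone whose markers had the highest mean log CPM over the spot and its up to 6 neighbours, standardised within its section. Zone markers were Slc5a2, Slc5a12, Slc34a1, Slc22a6, Slc22a8 and Slc12a3 (cortex), Slc7a13, Cyp7b1, Serpina1f, Slc22a13 and Atp11a (outer stripe), Slc12a1, Umod, Cldn10 and Ptger3 (inner stripe), Aqp2, Fxyd4, Cryab, Akr1b3 and Slc14a2 (inner medulla), and Krt5, Psca and the uroplakins Upk3a, Upk2, Upk1b and Upk1a (pelvis, with at least 10 counts and a rank in the top 5%). Intervals for shares of spots were exact at 95% and cover counting error only.

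Named genes were the 7 receptors and ligands, Havcr1, Lcn2, Erbb4, Egf, Ereg and all 4 genes of ligand release. The 3 genes most like each receptor or ligand and some markers of zones and cell types were also named. Of each other pathway list, up to 3 rises and 3 falls past the threshold were named. The genes and lists were chosen with earlier results of these data known. A gene of the list of signal adaptors and kinases is not reported here. On simulated counts for 15305 genes of the whole-section comparison, 192 of 200 changed genes were found by edgeR (9 false calls) and 181 by DESeq2 1.42.0 (7 false calls). For the outer stripe interaction (14174 genes) edgeR found 178 of 200, and 10 calls were false. For cortex between conditions edgeR found 180 of 200 (9 false calls) and DESeq2 175 (15 false calls). The planted changes were larger than most differences of the 7 genes. Simulated counts were drawn independently with a fixed spread. These rates therefore do not carry over to smaller changes or to zone sums that share sections.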

Additional observations from a re-analysis of the deposited data

Results flagged for a closer look

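The rise of Hbegf differed between zones by a test of the difference itself. It exceeded the cortical difference by 2.15 on the log2 scale in outer stripe (edgeR adjusted p = 6.80e-06), by 1.94 in inner stripe (adjusted p = 9.34e-06) and by 1.68 in inner medulla (adjusted p = 0.000166), with the zone over cortex value higher in both ischemic sections than in both normal sections. The rise of Egfr in outer stripe exceeded that in cortex by 0.66 (edgeR adjusted p = 0.0295). That call was lost without normal section 1 (0.51) and without either ischemic section (0.62 and 0.70). It was also lost with zones from the spot alone (0.63, edgeR adjusted p = 0.0550).

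Erbb3 in outer stripe against cortex had opposite signs by condition. Outer stripe was higher by 0.15 and 0.13 on the log2 scale in the 2 normal sections and lower in both ischemic sections (-0.55 and -0.19), a mean difference of -0.51. The interaction did not pass (edgeR adjusted p = 0.0606). Hbegf in pelvis against cortex also changed sign, from -0.12 and -0.16 in normal sections to 0.72 and 1.02 in ischemic sections, a mean difference of 1.01 that was not tested.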

How the results depend on the processing

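In whole sections Hbegf (log2 fold change 1.63 to 1.96) and Egfr (0.54 to 0.91) kept their calls in all 12 alternatives. DESeq2 gave -0.29 for Erbb2, 0.52 for Tgfa and 0.61 for Btc (adjusted p = 0.0975, 0.123 and 0.0973), all past the threshold in edgeR only. Erbb2 was 0.0083 with total counts and -0.23 with no low count filter (edgeR adjusted p = 0.0817), and Btc was 0.54 without pelvis. With sections left out in turn, Erbb2 ranged from -0.31 to -0.22, Erbb3 from -0.21 to -0.16, Tgfa from 0.34 to 0.77 and Btc from 0.46 to 0.83. In normal inner medulla against cortex, Tgfa ranged from -0.13 to 2.00 with sections left out, and Btc turned from -0.37 to 1.48 with zones from the spot alone (edgeR adjusted p = 0.0157). The cause was not tested. With sections left out, the calls between conditions ranged from 2508 to 7090 in cortex (5689 with all), 4220 to 7511 in inner stripe (6827) and 2549 to 4598 in inner medulla (4978). Against normal cortex they ranged from 1128 to 2751 for outer stripe (2134) and 1798 to 3912 for inner stripe (2962). Interaction calls ranged from 14 to 2960 for outer stripe (1665), 186 to 3013 for inner stripe (1576) and 102 to 2093 for inner medulla (1027), the lowest each time without an ischemic section, where the lone section is assumed to vary like the others. With zone scores standardised over all sections, the calls were 4531 for inner stripe between conditions, 4489 for normal inner stripe, 486 for the inner stripe interaction and 1866 for that of inner medulla.

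With total counts the higher share of calls went from 50.4% to 67.6% in cortex, 48.2% to 69.3% in outer stripe, 46.1% to 66.7% in inner stripe and 39.6% to 50.5% in inner medulla, from 49.9% to 35.8%, 52.8% to 71.0% and 50.7% to 78.2% for normal outer stripe, inner stripe and inner medulla against cortex, and from 37.6% to 48.5% for the outer stripe interaction. For the inner medulla interaction the higher share fell with total counts, from 22.7% to 13.6%. After thinning, the log2 ratio of the share of spots with a UMI was 1.94 for Hbegf, 0.89 for Tgfa and 1.38 for Btc. With all UMIs the ratios were 1.32, 0.70 and 0.63. The thinned Btc value rested on 12 and 8 spots in normal sections and on 17 and 33 in ischemic sections.

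Sections share only a replicate number (correlation of deviations 0.16 over 15305 genes, 2 pairs). With the number as a replicate block, 10089 genes passed in whole sections against 9279, and Egfr in cortex (0.32, edgeR adjusted p = 0.0382), Btc in normal inner stripe (1.18, adjusted p = 0.0435) and Erbb3 in the outer stripe interaction (-0.53, adjusted p = 0.0383) also passed. It changed no other call of the 7 genes. Depth limits Areg, with 5 counts in the normal sections, and Tgfa and Btc in inner medulla, where a normal section held 1 count.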
